A study of Rattus norvegicus with 20 samples.

Results

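The comparison was between the livers of 5 rats labelled rosiglitazone and 5 rats labelled resveratrol, chosen by those labels out of 20 rats in 4 groups of 5, with 1 array for each rat. All 20 were male rats of strain Zucker, described as ZDF (Zucker diabetic fatty) in the labels. This is a line in which obese animals carry a defective leptin receptor and become diabetic. The other groups, used here for reference, were lean control rats on a standard chow and obese rats given a stock diet over 6 weeks. The labels gave no dose, route, duration, age or body type for the treated rats and no time of day of collection. The rats were caged singly with food and water freely available and a reversed cycle of 12 h light and 12 h dark. Each array was hybridised with cRNA from 100 ng of total liver RNA, and the replicates were labelled as biological.

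Rosiglitazone is a thiazolidinedione, an insulin sensitiser that binds and activates PPARgamma, a nuclear receptor most abundant in adipocytes and also present in macrophages. Resveratrol is a plant polyphenol of grapes and other plants that has been studied for effects on the deacetylase SIRT1 and on AMP kinase. The liver makes most plasma proteins, lipoproteins, cholesterol and bile acids, and its resident macrophages are the Kupffer cells. Pparg, Lepr and Sirt1 mRNAs were not analysed here, since none of the probe sets used was named for them. In whole liver, fewer cells of a type and less RNA per cell cannot be told apart.

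The deposited values were log2 expression of 36685 probe sets, from −0.24 to 12.25 over all arrays, with array medians of 2.36 to 2.43 in the 10 livers compared. Pairwise correlations over the probe sets of the 9481 genes tested ran from 0.960 to 0.979 among these 10 arrays, and no array was a copy of another. Of 14557 genes with a probe set of their own, 9481 passed the filter on low values and were tested. All 8 hepatocyte markers tested were bright, and Alb, the albumin gene, averaged 11.65 with rosiglitazone and 11.74 with resveratrol, as the labelled tissue requires. Principal component 1 (19.5% of the variance) placed rosiglitazone livers at 9.81 to 13.3 and resveratrol livers at −15.3 to −8.57. Component 2 held 18.6% and did not part the treatments.

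**Figure D1:**
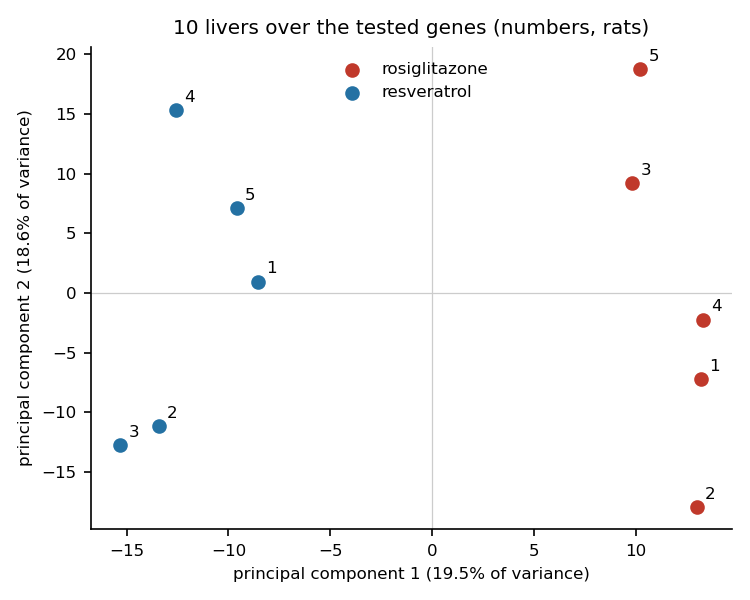
Scores of the 10 livers on principal components 1 and 2 of the tested genes, in log2 units, with rats numbered within a treatment. The 5 rosiglitazone livers (red) lie on the right, at 9.81 to 13.3 on component 1, and the 5 resveratrol livers (blue) on the left, at −15.3 to −8.57, while both are spread along component 2.

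Most genes differed little between the treatments. The median log2 difference (rosiglitazone minus resveratrol throughout) was −0.00 over the 9481 genes, and the 5th and 95th percentiles were −0.37 and 0.35. At an adjusted p under 0.05, 84 genes passed (0.886% of those tested), of which 49 (0.517%) were higher with rosiglitazone and 35 (0.369%) were higher with resveratrol. At an unadjusted p under 0.05 there were 559 genes higher (5.9%) and 573 lower (6.04%), 1132 together against 474 that chance alone would give. The 5 and 5 livers did not overlap for 317 genes (3.34%), including 74 of the 84 that passed. At least a 2-fold difference was reached by 22 of the 84, 12 higher and 10 lower with rosiglitazone. The test was limma on all 20 arrays, with Benjamini-Hochberg adjustment over the genes tested, and errors given with ± after a difference are its standard errors.

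**Figure D2:**
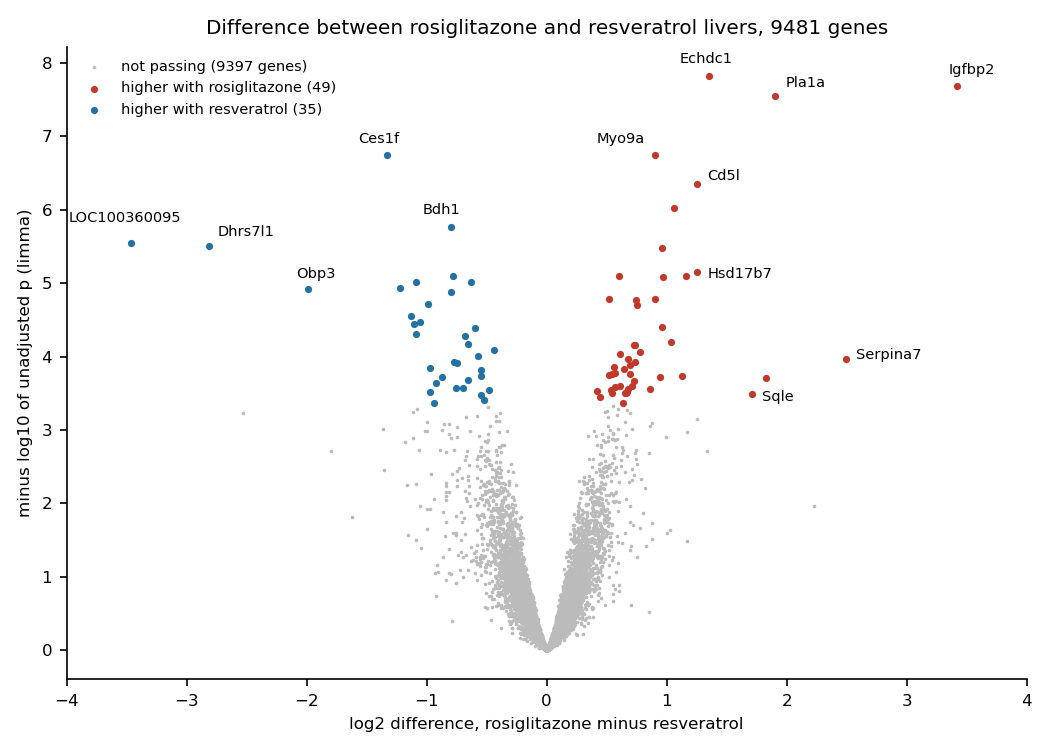
Each point is 1 of 9481 genes, with its log2 difference (rosiglitazone minus resveratrol) on the x axis and minus log10 of its unadjusted p on the y axis, which is a log scale. Red marks the 49 genes higher with rosiglitazone and blue the 35 higher with resveratrol at an adjusted p under 0.05, with 13 of them named.

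The obese group was set beside both treatments as a reference, although the labels do not say whether the treated rats were obese. The mean of the obese livers was nearer to that of resveratrol for 73 of the 84 genes (86.9%) and for 5353 of all 9481 (56.5%). It fell between the means of both treatments for 59 of the 84 and outside them for 25. Against obese livers, 142 genes passed for rosiglitazone (1.5%) and 1 passed for resveratrol (0.0105%), namely Me1, the cytosolic malic enzyme. These comparisons share arrays with each other and with that of rosiglitazone against resveratrol. Each treatment's own difference from obese livers is therefore given beside the direct difference, for part of the genes described.

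Secreted proteins were among the genes with the widest higher values under rosiglitazone. Igfbp2, a binding protein of insulin-like growth factors, read 5.44, 6.47, 5.04, 6.42 and 4.11 with rosiglitazone and 2.47, 1.95, 1.85, 2.003 and 2.12 with resveratrol. Its groups lay far apart (3.42 ± 0.40, adjusted p = 8.87e-05; 10.7-fold), and the resveratrol mean, below every array median, makes that fold uncertain. The difference from obese livers was 2.89 for rosiglitazone (adjusted p = 0.000327) and −0.52 for resveratrol (adjusted p = 0.948). Serpina7, the thyroxine-binding globulin, read 5.22, 6.12, 5.64, 5.12 and 6.65 with rosiglitazone and 3.42, 3.28, 2.97, 2.87 and 3.74 with resveratrol, with every rosiglitazone liver above every resveratrol liver (2.49 ± 0.53, adjusted p = 0.0241; 5.63-fold). Lean control livers spanned 2.47 to 5.76 for Serpina7, the whole range between the treatments, and the call did not pass without rosiglitazone rat 2 or 5 or resveratrol rat 2, 3 or 4 (adjusted p of 0.0312 to 0.0643 over all 10 omissions). Pla1a, a secreted phospholipase A1 that acts on phosphatidylserine, read 4.54, 5.35, 4.59, 4.92 and 4.74 with rosiglitazone and 3.31, 2.78, 2.67, 2.96 and 2.90 with resveratrol. The 5 and 5 values did not overlap (1.91 ± 0.22, adjusted p = 8.87e-05; 3.75-fold), and against obese livers they gave 1.64 for rosiglitazone (adjusted p = 0.000327) and −0.26 for resveratrol (adjusted p = 0.964). Echdc1, an enzyme that removes ethylmalonyl-CoA formed as a by-product of fatty acid synthesis, read 4.59, 5.26, 4.70, 4.88 and 5.04 with rosiglitazone and 3.46, 3.36, 3.55, 3.95 and 3.40 with resveratrol. It had the smallest p of all genes (1.35 ± 0.15, adjusted p = 8.87e-05; 2.55-fold), and against obese livers it gave 1.58 for rosiglitazone (adjusted p = 8.72e-06) and 0.23 for resveratrol (adjusted p = 0.945).

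Other genes at the top of the higher group were Slc13a5, Dsg1 and, chosen after its values were seen, Myo9a. Slc13a5, the citrate transporter of the hepatocyte membrane, averaged 3.28 ± 0.25 (SD, n = 5) with rosiglitazone and 2.22 ± 0.31 with resveratrol, close to the array medians (1.06 ± 0.16, adjusted p = 0.00129). Dsg1, a cadherin of desmosomes, had 1.13 ± 0.25, adjusted p = 0.0303 and did not pass in 7 of 10 omissions of 1 array. Myo9a, an unconventional myosin, read 4.18, 4.44, 4.11, 4.10 and 4.31 with rosiglitazone and 3.18, 3.25, 3.33, 3.27 and 3.59 with resveratrol, without overlap (0.90 ± 0.12, adjusted p = 0.000347). Eif4ebp3, a binding protein of a translation initiation factor, also chosen after seeing its values, differed by 1.83 ± 0.41 (adjusted p = 0.0306), but rosiglitazone rat 5 read 4.90, within the resveratrol range of 4.36 to 5.62, while the other rosiglitazone livers read 7.19 to 7.67.

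**Figure D3:**
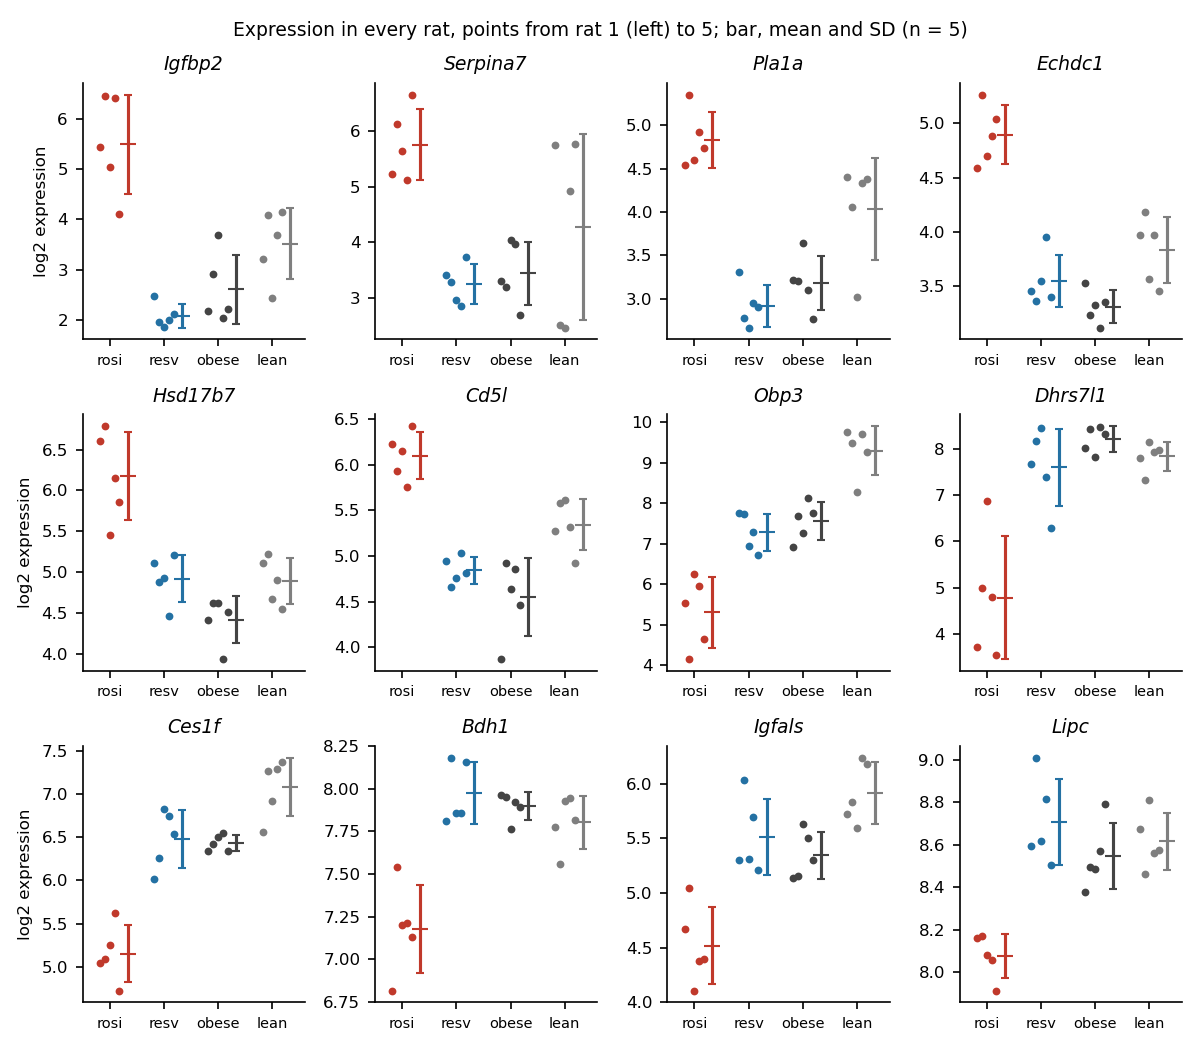
Log2 expression in every liver for 12 genes, with 5 points per group from rat 1 on the left to rat 5 on the right and a bar for the mean and SD (n = 5 rats); each panel has its own y axis, which does not start at 0. For Igfbp2, Serpina7, Pla1a, Echdc1, Hsd17b7 and Cd5l the red rosiglitazone points lie above all blue resveratrol points, for Obp3, Ces1f, Bdh1, Igfals and Lipc they lie below, and for Dhrs7l1 1 rosiglitazone liver at 6.87 lies above the lowest resveratrol liver at 6.29.

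In the other direction, a secreted protein, a dehydrogenase, an esterase and a locus without a gene name were among those with the widest lower values under rosiglitazone. Obp3, of the alpha-2u globulin family that male rat liver secretes, read 5.52, 4.14, 6.25, 5.95 and 4.65 with rosiglitazone and 7.75, 7.73, 6.95, 7.28 and 6.73 with resveratrol. The groups did not overlap (−1.99 ± 0.35, adjusted p = 0.00565), and the differences from obese livers were −2.25 for rosiglitazone (adjusted p = 0.00131) and −0.27 for resveratrol (adjusted p = 0.97). Members of that family are near copies of each other, so the probe set may read several. Dhrs7l1, a short-chain dehydrogenase, read 3.71, 4.99, 6.87, 4.80 and 3.55 with rosiglitazone and 7.67, 8.18, 8.44, 7.40 and 6.29 with resveratrol. Its groups overlapped through rosiglitazone rat 3 and resveratrol rat 5, yet the mean difference was among the widest (−2.81 ± 0.45, adjusted p = 0.00285; 7.02-fold). The largest difference of either sign belonged to the locus LOC100360095, listed in RefSeq with the synonym Rup-4 and named here after its values were seen. It read 7.64, 5.09, 8.24, 5.80 and 3.59 with rosiglitazone and 9.72, 9.84, 9.65, 9.61 and 8.87 with resveratrol. All rosiglitazone livers were below all resveratrol livers (−3.46 ± 0.55, adjusted p = 0.00285), and the rosiglitazone livers were spread from 3.59 to 8.24, while obese livers lay between 9.79 and 10.48.

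Ces1f, a carboxylesterase, read 5.05, 5.10, 5.26, 5.63 and 4.72 with rosiglitazone and 6.02, 6.26, 6.82, 6.75 and 6.54 with resveratrol, with no overlap (−1.33 ± 0.18, adjusted p = 0.000347) and with −1.28 for rosiglitazone (adjusted p = 0.000327) and 0.04 for resveratrol (adjusted p = 0.994) against obese livers. Carboxylesterases are a multigene family, so some of this signal may be shared with near copies. Over the list of carboxylesterases and short-chain dehydrogenases, 2 of 21 members tested passed, both lower with rosiglitazone (0.369% of all genes were), and the median was −0.30 against −0.00 over all genes. At an unadjusted p under 0.05, 8 members were lower and 0 higher, where 6.04% of all genes were lower. Next to Ces1f and Dhrs7l1, Ces2h differed by −1.07 ± 0.30 (adjusted p = 0.108) and Dhrs4 by −0.29 ± 0.11 (adjusted p = 0.255), without passing.

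Transporters of organic anions and of zinc and an enzyme of folate metabolism followed at the low end. Slc22a8, an organic anion transporter, read 6.34, 5.90, 6.95, 6.33 and 6.18 with rosiglitazone and 7.60, 7.57, 7.03, 7.40 and 7.52 with resveratrol, without overlap (−1.09 ± 0.19, adjusted p = 0.00512). Aldh1l2, a mitochondrial formyltetrahydrofolate dehydrogenase of folate metabolism, read 6.83, 6.35, 6.54, 6.33 and 7.69 with rosiglitazone and 7.77, 7.92, 7.84, 7.70 and 8.17 with resveratrol, again without overlap (−1.13 ± 0.21, adjusted p = 0.00972). Slc39a4, a zinc importer, averaged 4.30 with rosiglitazone, 5.52 with resveratrol and 4.91 in obese livers (−1.22 ± 0.21, adjusted p = 0.00565). It stood apart from most genes in that the obese mean lay about midway, with −0.60 for rosiglitazone (adjusted p = 0.213) and 0.62 for resveratrol (adjusted p = 0.776). Tle3, a transcriptional corepressor, had −1.05 ± 0.20, adjusted p = 0.0115. Ska2, a protein of the spindle and kinetochore, had −1.09 ± 0.22, adjusted p = 0.0147 and did not pass without resveratrol rat 2. Below these came L3hypdh, a hydroxyproline dehydratase, with −0.98 ± 0.21, adjusted p = 0.028, the cation channel Trpm2 with −0.97 ± 0.22, adjusted p = 0.038, the cyclic AMP phosphodiesterase Pde8b with −0.92 ± 0.21, adjusted p = 0.0345 and Phlda1 with −0.87 ± 0.19, adjusted p = 0.0303. These calls failed in 6, 7, 9 and 6 of 10 omissions. Serf1 had −0.80 ± 0.14, adjusted p = 0.00599 and passed in all.

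Growth hormone keeps a set of hepatic genes at the male level in rats, and insulin-like growth factor binding proteins answer to it as well. Of 15 genes of this list tested, 3 passed, 1 higher (Igfbp2) and 2 lower (Obp3 and Igfals) with rosiglitazone (0.517% and 0.369% of all genes), and the median was −0.16 against −0.00 over all genes. Igfals, the acid-labile subunit that holds insulin-like growth factor in its circulating complex, read 4.67, 5.04, 4.10, 4.38 and 4.40 with rosiglitazone and 5.31, 6.03, 5.31, 5.69 and 5.21 with resveratrol. The groups did not overlap (−0.99 ± 0.18, adjusted p = 0.00716), and against obese livers the differences were −0.83 for rosiglitazone (adjusted p = 0.0228) and 0.16 for resveratrol (adjusted p = 0.969). All 3 calls held whichever array was left out. Cyp2c11, the main male-specific cytochrome P450 of rat liver, read 8.14, 8.26, 8.83, 8.32 and 6.50 with rosiglitazone and 9.40, 9.62, 9.36, 9.50 and 8.07 with resveratrol. Rosiglitazone rats 1 to 4 and resveratrol rat 5 overlapped, and the difference of −1.18 ± 0.32 did not pass (adjusted p = 0.0939). Without resveratrol rat 5, the lowest of its group, it was −1.46 with an adjusted p of 0.0205. That rat was picked for its value, so this smaller p is no test of Cyp2c11.

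Cholesterol is built from acetyl-CoA through mevalonate, isoprenoids and squalene, and the enzymes of the pathway are known to rise together under the transcription factor SREBP2 when sterols run low. All 13 members tested had a positive difference, 10 of them at an unadjusted p under 0.05, 3 passed after adjustment and 0 were lower. Over all genes, 5.9% were higher at an unadjusted p under 0.05 and 0.517% passed as higher. The list's median was 0.63 against −0.00 over all genes. Summed on the linear scale, the 13 members reached 1416 to 2690 in rosiglitazone livers and 1182 to 1393 in resveratrol livers, without overlap, and 1019 to 1231 in obese and 1078 to 1402 in lean control livers. On mean log2 values, rosiglitazone livers (6.14 to 7.28) overlapped lean control livers (5.61 to 6.34) but not resveratrol livers (5.81 to 6.08). The median of the members' differences from obese livers was 0.79 with rosiglitazone and 0.17 with resveratrol.

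Along the pathway, Idi1, which isomerises isopentenyl diphosphate, read 5.40, 6.60, 4.51, 5.87 and 5.73 with rosiglitazone and 3.94, 4.52, 4.07, 4.41 and 4.50 with resveratrol. Only rosiglitazone rat 3 came down to the resveratrol range, and the difference of 1.34 did not pass (adjusted p = 0.108). Sqle, the squalene epoxidase, read 6.26, 7.33, 4.93, 6.25 and 6.01 with rosiglitazone and 4.30, 3.999, 4.86, 4.16 and 4.89 with resveratrol. Rosiglitazone rat 3 lay just above the highest resveratrol liver (1.71 ± 0.40, adjusted p = 0.0393), and leaving out rosiglitazone rat 3 was the 1 omission of 10 in which the call held. Of the later sterol steps, Hsd17b7, a ketosteroid reductase, read 6.60, 6.79, 5.46, 6.16 and 5.86 with rosiglitazone and 5.11, 4.88, 4.93, 4.46 and 5.21 with resveratrol. It did not overlap (1.26 ± 0.21, adjusted p = 0.00488), gave 1.76 for rosiglitazone (adjusted p = 0.000104) and 0.50 for resveratrol (adjusted p = 0.915) against obese livers, and passed in every omission. Sc5d, the lathosterol oxidase, read 8.49, 8.71, 8.59, 8.70 and 8.78 with rosiglitazone and 8.25, 8.17, 8.08, 8.30 and 8.36 with resveratrol, a small difference without overlap (0.42 ± 0.10, adjusted p = 0.0378) that failed in 8 of 10 omissions. Msmo1, a methylsterol oxidase, and Ebp, a sterol isomerase, differed by 1.17 (adjusted p = 0.0824) and 0.50 ± 0.12 (adjusted p = 0.0582). Idi1 and Msmo1 were named after their values were seen. Over the 10 omissions, 1 to 5 pathway genes passed, with 5 when rosiglitazone rat 3 was left out and 1 without rosiglitazone rat 2, 4 or 5 or resveratrol rat 1, 2, 3 or 4. In each of Idi1, Sqle, Msmo1 and Fdps the highest liver was rosiglitazone rat 2 and the lowest rosiglitazone liver was rat 3.

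Sqle, 1 of the 3 genes that passed, had no promoter sequence in the source used. The promoters of the other 2 are shown because all 13 pathway members tested had a positive difference here. They are the 250 bases before the start of Hsd17b7 and Sc5d in RefSeq (rat build GRCr8), 5′ to 3′ in the direction of the gene, with capitals marking the CCAAT box, here in its reverse form ATTGG.
Hsd17b7, chr13:84722755-84723004 (minus strand): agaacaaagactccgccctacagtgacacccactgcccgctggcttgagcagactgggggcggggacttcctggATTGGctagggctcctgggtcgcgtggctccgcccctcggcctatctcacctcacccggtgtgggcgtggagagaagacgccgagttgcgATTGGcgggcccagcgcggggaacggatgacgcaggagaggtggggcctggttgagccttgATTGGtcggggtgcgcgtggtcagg
Sc5d, chr8:51538278-51538527 (minus strand): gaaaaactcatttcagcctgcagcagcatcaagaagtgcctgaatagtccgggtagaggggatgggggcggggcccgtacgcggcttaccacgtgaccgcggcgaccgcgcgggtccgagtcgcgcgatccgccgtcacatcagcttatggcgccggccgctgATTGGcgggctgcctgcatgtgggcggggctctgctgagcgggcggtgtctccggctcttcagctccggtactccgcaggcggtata
Hsd17b7 held 3 such boxes and Sc5d held 1. Searched on both strands of the 250 bases before the start, CCAAT was found in 9 of the 10 pathway genes with a sequence, against 34.0% of 33469 promoters and 36.2% of those of 7755 tested genes. GGGCGG was found in 8 of 10 (30.5% of all and 54.8% of tested), CACGTG in 1 of 10 (5.59% and 8.21%), and the sterol regulatory element letters TCACNCCAC in 0 of 10 (0.974% and 0.967%). These are matches of letters and not shown binding sites. The sterol regulatory element letters were so rare in all promoters that 0 of 10 cannot set these genes apart from others.

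Of 10 genes for sterol sensing and uptake, 0 passed, and 1 was higher at an unadjusted p under 0.05 (5.9% of all genes were). This was Srebf2, the gene of SREBP2 itself, with a difference of 0.58 ± 0.16 (adjusted p = 0.103) and the highest value, 6.52, in a rosiglitazone liver. Insig2, which holds SREBP proteins in the endoplasmic reticulum, differed by −0.39 ± 0.28 (adjusted p = 0.641).

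Kupffer cells and other macrophages clear particles, lipids and aged red cells from blood passing the liver. Of 26 macrophage markers tested (28 were on the array as single-symbol genes), 10 passed and all 10 were higher with rosiglitazone, where 0.517% of all genes were. The median was 0.51 against −0.00 over all genes, 23 of the 26 had a positive difference, 21 were higher at an unadjusted p under 0.05 (5.9% of all genes) and 14 did not overlap between the treatments (3.34% of all genes). Summed on the linear scale, the markers reached 1096 to 1456 in rosiglitazone livers, 782 to 892 in resveratrol livers, 728 to 881 in obese livers and 789 to 1157 in lean control livers. The highest lean control liver lay above the lowest rosiglitazone liver (1096) and below the other 4.

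Cd5l, a secreted protein of macrophages that inhibits apoptosis, read 6.22, 5.93, 6.15, 5.76 and 6.42 with rosiglitazone and 4.94, 4.66, 4.76, 5.04 and 4.82 with resveratrol. Its 5 and 5 values did not overlap (1.25 ± 0.18, adjusted p = 0.000717), and against obese livers the differences were 1.55 for rosiglitazone (adjusted p = 4.77e-05) and 0.29 for resveratrol (adjusted p = 0.925). Vsig4, the complement receptor of Kupffer cells, read 6.60, 6.12, 6.33, 6.63 and 6.65 with rosiglitazone and 5.58, 5.48, 5.14, 5.60 and 5.72 with resveratrol, also without overlap (0.96 ± 0.19, adjusted p = 0.0126). Cd68, a lysosomal membrane protein of macrophages, read 5.50, 5.27, 5.59, 5.68 and 5.78 with rosiglitazone and 4.83, 4.77, 4.66, 4.80 and 5.01 with resveratrol (0.75 ± 0.14, adjusted p = 0.00716), and Aif1, an actin-binding protein of macrophages, had 0.97 ± 0.17, adjusted p = 0.00488. These 4 calls held whichever array was left out. Clec4f, a lectin of rodent Kupffer cells, had 0.74 ± 0.16, adjusted p = 0.025, the growth factor receptor Csf1r had 0.71 ± 0.16, adjusted p = 0.0367 and the complement subunit C1qa had 0.44 ± 0.10, adjusted p = 0.0421. With Lgals3 (0.78 ± 0.16, adjusted p = 0.021), Itgb2 (0.66 ± 0.15, adjusted p = 0.0382) and Fcer1g (0.52 ± 0.12, adjusted p = 0.0303), they lost significance in 4 to 9 of 10 omissions. Over the omissions between 4 and 9 markers passed, with 4 left when rosiglitazone rat 5, resveratrol rat 1 or resveratrol rat 2 was left out, and 6 passed with the arrays centred on their medians. The scavenger receptor Marco, named after its values were seen, showed a wide difference (1.26, adjusted p = 0.066) without passing, with rosiglitazone livers at 6.39 to 7.43 and resveratrol livers at 5.29 to 5.91. Cd14, Lyz2 and Ccr2 were the 3 markers with a negative difference, and none of these passed.

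**Figure D4:**
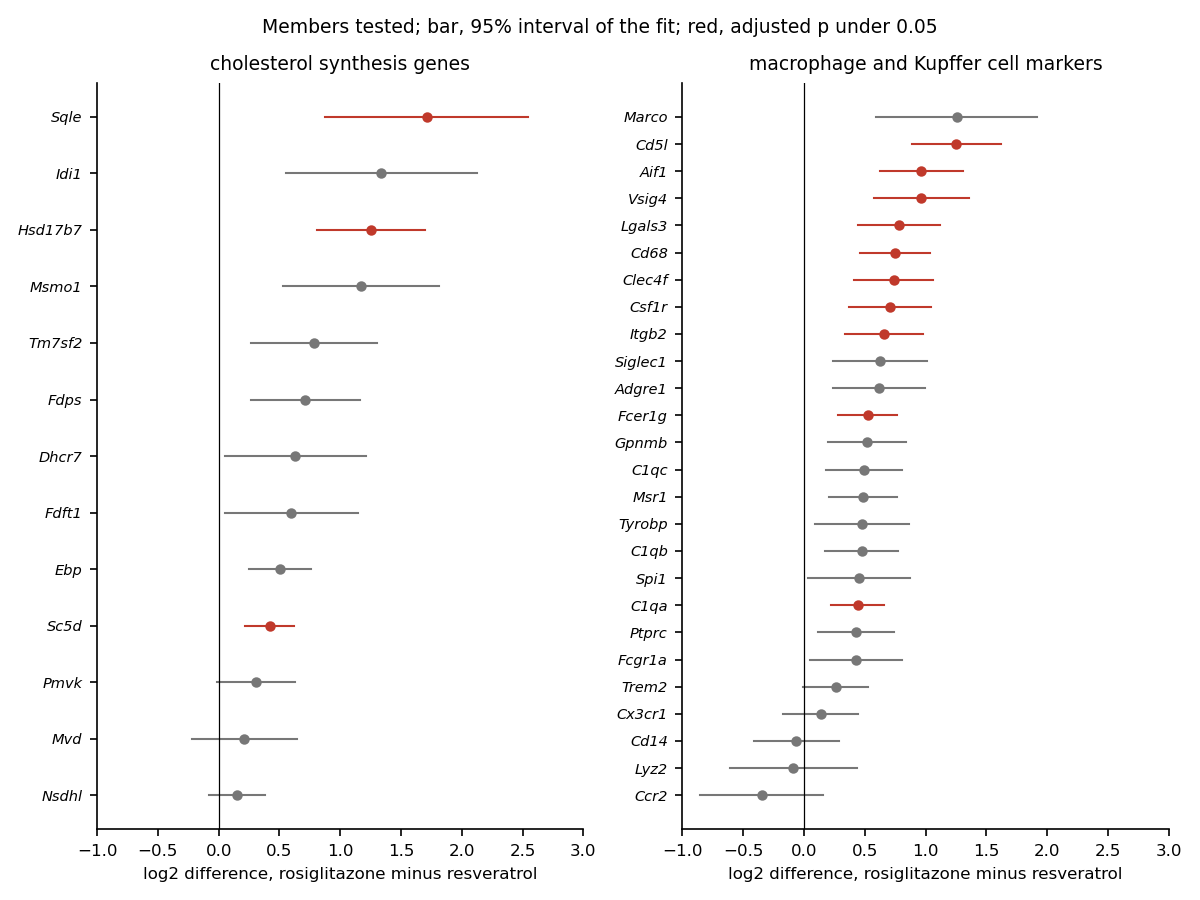
Log2 difference (rosiglitazone minus resveratrol) of the 13 cholesterol synthesis genes tested (left) and the 26 macrophage and Kupffer cell markers tested (right), with bars for the 95% interval of the limma fit (5 against 5 livers). Red marks an adjusted p under 0.05, reached by 3 and 10 members; all 13 points on the left and 23 of 26 on the right lie above 0.

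Markers of other cells were examined beside this. The 8 hepatocyte markers tested had a median difference of 0.03 and none passed, with summed levels of 12456 to 13139.6 with rosiglitazone and 12623 to 12811 with resveratrol. Of 13 endothelial markers none passed (median 0.14, summed levels 334 to 512 and 362 to 432). Of 11 stellate cell and fibroblast markers none passed (median 0.09, 425 to 564 and 400.4 to 479). In this second list 3 were higher and 0 lower at an unadjusted p under 0.05, where 5.9% and 6.04% of all genes were. These 3, named after their values were seen, were the filament gene Vim (0.28 ± 0.12, adjusted p = 0.375) and the matrix genes Dcn (0.53 ± 0.24, adjusted p = 0.383) and Reln (0.25 ± 0.12, adjusted p = 0.404). Only 4 of 17 lymphocyte markers passed the filter on low values, with none passing the test. Of these 4, Cd4, a receptor of helper T cells that rat macrophages also carry, differed without overlap (0.51 ± 0.13, adjusted p = 0.0758) and was picked after its values were seen. The defining T cell genes Cd3d, Cd3e and Cd3g averaged 1.35 to 2.02, below the array medians. Of 10 neutrophil markers 4 passed the filter and none the test, and the same held for 4 of 5 cholangiocyte markers. All 3 erythroid markers tested had a negative difference (median −0.35, none passing), with the widest in the globin gene Hbb-b1 (−0.52 ± 0.20, adjusted p = 0.265) and summed levels of 86.9 to 164 with rosiglitazone and 92.7 to 204 with resveratrol. Whether the number of macrophages or their expression differed was not tested. Further genes that passed, named after their values were seen, were the lysosomal genes Cd63 (0.75 ± 0.14, adjusted p = 0.00664) and Ctsl (0.74 ± 0.15, adjusted p = 0.0179), the GTPase Rac2 of blood-forming cells (0.73 ± 0.15, adjusted p = 0.0179) and the cyclooxygenase Ptgs1 (0.60 ± 0.10, adjusted p = 0.00488).

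Heme from red cells is broken down by Hmox1, heme oxygenase. Hmox1 was the 1 of 17 heme and iron genes that passed, where 0.886% of all genes did. It read 5.50, 5.35, 5.51, 5.55 and 5.58 with rosiglitazone and 4.66, 4.14, 3.96, 5.34 and 4.67 with resveratrol. Rosiglitazone livers were held within 5.35 to 5.58, the resveratrol livers spread from 3.96 to 5.34 (0.94 ± 0.21, adjusted p = 0.0303), and the call failed in 7 omissions. Ftl1, the ferritin light chain, differed the other way by −0.45 ± 0.16 (adjusted p = 0.235), without overlap. In the list of inflammatory cytokine genes, 1 of 25 passed (0.886% of all genes did). This was the chemokine Ccl6, which read 7.69, 7.56, 7.44, 7.62 and 8.15 with rosiglitazone and 6.43, 6.93, 6.71, 6.78 and 7.08 with resveratrol (0.91 ± 0.16, adjusted p = 0.00664) and held in every omission. The median of that list was −0.03, and Il1a (−0.79 ± 0.24, adjusted p = 0.152), Cxcl9 (−0.65 ± 0.20, adjusted p = 0.155) and Ccl2 (−0.86 ± 0.32, adjusted p = 0.249) had negative differences that did not pass.

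The acute phase genes, plasma proteins that the liver makes more of in inflammation, had 0 of 20 passing and a median of 0.15. At an unadjusted p under 0.05 there were 6, all positive, where 5.9% of all genes were higher. A2m, the alpha-2 macroglobulin that is a strong acute phase protein of the rat, read 6.46, 6.71, 4.69, 5.30 and 8.37 with rosiglitazone and 8.14, 3.10, 2.62, 3.24 and 3.28 with resveratrol. Resveratrol rat 1 stood at the level of the highest rosiglitazone liver while the other 4 resveratrol livers were at 2.62 to 3.28, and the difference of 2.23 ± 0.80 did not pass (adjusted p = 0.228). Without that liver the difference was 3.25 with an adjusted p of 0.00679, while obese livers averaged 2.91 and lean controls 4.38. The liver was picked for its value, so this smaller p is no test of A2m. Lbp (0.72 ± 0.29, adjusted p = 0.291) and Fgl1 (0.65 ± 0.27, adjusted p = 0.321) overlapped between groups. Among 8 proteins known to fall in the acute phase, 2 passed, Serpina7 and Apom, both higher with rosiglitazone (0.517% of all genes were). Neither call held in every omission. The list's median was 0.005, with 4 positive and 4 negative differences. Serpina6, the corticosteroid-binding globulin, differed by −0.86 ± 0.22 (adjusted p = 0.0736), and Alb and Ttr differed by −0.09 ± 0.08 and −0.08 ± 0.10.

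Antigen presentation genes had a median of 0.34 and 0 of 13 passing. At an unadjusted p under 0.05, 7 were higher and 1 lower, where 5.9% and 6.04% of all genes were. The higher ones included the class II gene RT1-Bb (0.996 ± 0.27, adjusted p = 0.0878) and the invariant chain Cd74 (0.75 ± 0.21, adjusted p = 0.108). The lower one was the proteasome subunit Psmb8, at −0.77 ± 0.22 (adjusted p = 0.108).

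In bile acid synthesis and sterol disposal, 2 of 13 genes passed, both higher with rosiglitazone (0.517% of all genes were), and the median was 0.13. Cyp7b1, the oxysterol hydroxylase of the alternative bile acid pathway, read 3.66, 3.39, 3.53, 3.40 and 3.03 with rosiglitazone and 2.40, 2.75, 2.09, 2.32 and 2.27 with resveratrol, without overlap (1.03 ± 0.21, adjusted p = 0.0177). Here the obese mean was nearer to rosiglitazone, with 0.15 for rosiglitazone (adjusted p = 0.867) and −0.89 for resveratrol (adjusted p = 0.229) against obese livers, and the resveratrol mean of 2.37 lay within the array medians. Slc27a5, the bile acid-CoA ligase, read 8.85, 8.93, 8.95, 8.93 and 8.77 with rosiglitazone and 8.31, 8.01, 8.12, 8.39 and 8.22 with resveratrol, a tight and separate pair of groups (0.67 ± 0.14, adjusted p = 0.0241) that nevertheless failed in 5 omissions. Nr0b2, the repressor SHP that bile acids induce, read 4.67, 3.83, 4.23, 5.07 and 4.20 with rosiglitazone and 5.82, 5.97, 7.35, 5.14 and 4.56 with resveratrol. The groups overlapped and the difference of −1.37 ± 0.36 did not pass (adjusted p = 0.0809), with −1.88 for rosiglitazone (adjusted p = 0.00723) and −0.52 for resveratrol (adjusted p = 0.945) against obese livers.

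Lipoprotein genes went both ways, with 2 of 22 higher (Pla1a and Apom) and 2 lower (Lipc and Apoa4), and a median of 0.02. Over all genes, 0.517% passed as higher and 0.369% as lower. Lipc, the hepatic lipase that acts on lipoproteins at the sinusoid, read 8.16, 8.17, 8.08, 8.06 and 7.91 with rosiglitazone and 8.60, 9.01, 8.62, 8.82 and 8.51 with resveratrol. No liver overlapped (−0.63 ± 0.11, adjusted p = 0.00512), and the call held in every omission. Apoa4, an apolipoprotein of triglyceride-rich particles, read 7.36, 6.84, 7.43, 7.49 and 7.80 with rosiglitazone and 8.07, 8.47, 8.40, 8.57 and 8.12 with resveratrol (−0.94 ± 0.23, adjusted p = 0.0483). Rosiglitazone livers were near the lean control mean of 7.35 and resveratrol livers near the obese mean of 8.25, and 9 omissions lost the call. Apom, which carries sphingosine phosphate on high density lipoprotein, read 7.34, 7.22, 7.44, 7.23 and 7.27 with rosiglitazone and 6.75, 6.62, 6.88, 6.71 and 6.84 with resveratrol (0.54 ± 0.13, adjusted p = 0.0382). It differed little but tightly, and every omission raised its adjusted p above 0.05, to between 0.0599 and 0.113.

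Of 18 genes tested that are known as PPARgamma targets in adipocytes or as lipid droplet proteins, 1 passed, Fabp4, and the median was −0.11. Over all genes, 0.886% passed. Fabp4, the fatty acid-binding protein of adipocytes and macrophages, read 3.54, 3.47, 3.79, 3.37 and 3.20 with rosiglitazone and 2.38, 3.03, 1.88, 2.36 and 1.92 with resveratrol. The groups did not overlap (1.16 ± 0.20, adjusted p = 0.00488), with 0.9998 for rosiglitazone (adjusted p = 0.0108) and −0.16 for resveratrol (adjusted p = 0.97) against obese livers, but the resveratrol mean of 2.31 lay below the array medians, so the size is uncertain. Of the other adipocyte markers, Adipoq averaged 2.82 and 2.87 and Plin1 3.03 and 3.21 with rosiglitazone and resveratrol, and Lep, at 1.39 and 1.63, was under the filter. Cfd, named after its values were seen, was higher with rosiglitazone (4.04 to 4.35) than with resveratrol (3.43 to 3.92), without overlap and without passing. Cidea, a lipid droplet protein, differed by −0.99 ± 0.25 (adjusted p = 0.0701), the triglyceride lipase Pnpla2 by 0.60 ± 0.21 (adjusted p = 0.214) and Cidec by −0.35 ± 0.15 (adjusted p = 0.337). Cd36, the fatty acid translocase, differed by −0.05 (95% interval −0.69 to 0.59), Plin2 by 0.02 (−1.33 to 1.36) and Angptl4 by −0.13 (−1.15 to 0.89), so that sizeable differences in either direction could not be detected for these genes.

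Fatty acid oxidation genes had 1 of 31 passing, lower with rosiglitazone (0.369% of all genes were), and a median of −0.15. That gene was Bdh1, the hydroxybutyrate dehydrogenase that completes ketone body synthesis, which read 6.81, 7.54, 7.20, 7.21 and 7.13 with rosiglitazone and 7.81, 8.18, 7.86, 7.86 and 8.16 with resveratrol. The groups lay apart (−0.79 ± 0.12, adjusted p = 0.00203), the differences from obese livers were −0.72 for rosiglitazone (adjusted p = 0.00274) and 0.07 for resveratrol (adjusted p = 0.988), and the call held in every omission. Acads (−0.47 ± 0.12, adjusted p = 0.0758) and Hadh (−0.38 ± 0.11, adjusted p = 0.109), enzymes of short-chain beta oxidation, did not pass, nor did Cpt1a, the carnitine palmitoyltransferase that admits fatty acids to mitochondria, at 0.34 ± 0.16 (adjusted p = 0.417). Pdk4, the pyruvate dehydrogenase kinase, spanned 5.74 to 8.87 and 6.73 to 9.33 and differed by −0.10 (95% interval −1.41 to 1.22).

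Of 20 fatty acid synthesis genes 0 passed, the median was −0.27, and 8 were lower and 1 higher at an unadjusted p under 0.05. Over all genes, 6.04% were lower and 5.9% higher at that level. Me1 read 4.87, 5.10, 4.90, 4.46 and 5.32 with rosiglitazone and 5.47, 5.43, 5.91, 5.52 and 6.07 with resveratrol. All resveratrol livers were above all rosiglitazone livers without the difference passing (−0.75 ± 0.19, adjusted p = 0.0768), and both means were above the obese mean of 4.33 (0.60 for rosiglitazone (adjusted p = 0.147) and 1.35 for resveratrol (adjusted p = 0.00641)). The elongase Elovl5 differed by −0.81 ± 0.21 (adjusted p = 0.0726), the triglyceride synthesis enzyme Dgat2 by −0.37 ± 0.10 (adjusted p = 0.1) and pyruvate kinase Pklr by −0.97 ± 0.35 (adjusted p = 0.239). Srebf1, the gene of the lipogenic factor SREBP1, differed by −0.71 ± 0.26 (adjusted p = 0.246), and resveratrol rat 1 read 6.13 where its 4 group mates read 6.92 to 7.10.

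The oxidative phosphorylation list had 28 of 31 members with a negative difference and a median of −0.15, with 0 passing. At an unadjusted p under 0.05, 8 were lower and 2 higher, where 6.04% and 5.9% of all genes were. For 9 members the treatments did not overlap (3.34% of all genes). Ndufs7 and Ndufa4, subunits of complex I, differed by −0.31 ± 0.11 (adjusted p = 0.231) and −0.22 ± 0.08 (adjusted p = 0.267). Uqcc2 (0.68 ± 0.22, adjusted p = 0.171) and Atp5f1c (0.41 ± 0.15, adjusted p = 0.26) had positive differences at levels near or below the array medians. Among 26 antioxidant and conjugation genes, 1 passed as higher and 1 as lower (0.517% and 0.369% of all genes), and the median was −0.15. Ugt2b1, a glucuronosyltransferase with close relatives whose signal it may share, read 8.28, 8.34, 7.80, 8.17 and 7.86 with rosiglitazone and 7.12, 6.91, 7.12, 7.30 and 7.22 with resveratrol (0.96 ± 0.15, adjusted p = 0.00285). Akr7a3, an aldehyde reductase that detoxifies aflatoxin aldehydes, read 4.79, 5.41, 4.65, 5.23 and 5.01 with rosiglitazone and 5.72, 6.42, 6.53, 5.84 and 6.12 with resveratrol (−1.11 ± 0.21, adjusted p = 0.0119). Both pairs of groups were separate and both calls held in every omission. Gstt1 (−0.58 ± 0.17, adjusted p = 0.122) and Gsta2 (−0.74 ± 0.23, adjusted p = 0.146) did not pass.

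Of 21 endoplasmic reticulum stress genes, 1 passed (0.886% of all genes did). Ddit3, the transcription factor CHOP, read 4.45, 4.10, 4.47, 4.65 and 4.32 with rosiglitazone and 4.77, 4.98, 5.63, 5.37 and 5.07 with resveratrol, lower in every rosiglitazone liver than in any resveratrol liver (−0.77 ± 0.16, adjusted p = 0.025), and it failed in 5 omissions. The list's median was −0.05, and Atf3 (−0.93 ± 0.52, adjusted p = 0.505) and Ppp1r15a (−0.61 ± 0.31, adjusted p = 0.437) overlapped. The immediate-early genes, which respond within minutes to stress and handling, had the lowest median of all lists described, −0.50, with 15 of 16 members negative and 0 passing. Fos (−1.05 ± 0.38, adjusted p = 0.226) and Dusp1 (−0.84 ± 0.27, adjusted p = 0.171) had the smallest p among them. At an unadjusted p under 0.05, 2 members were lower and 0 higher, where 6.04% and 5.9% of all genes were. Mean log2 values of the list overlapped between the treatments, at 4.64 to 5.42 with rosiglitazone and 4.99 to 5.63 with resveratrol. The 11 clock genes had a median of −0.10 and 0 passing, with Bhlhe40 at −0.39 ± 0.17 (adjusted p = 0.355) and Per2 at −0.44 ± 0.20 (adjusted p = 0.388). The part of handling or of collection time in these values was not tested.

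In 5 further lists 0 genes passed. The 17 sirtuin and AMP kinase genes had a median of −0.01, with Sirt4 at −0.53 ± 0.17 (adjusted p = 0.175) and Ppargc1a, a coactivator of mitochondrial and gluconeogenic genes, at 0.87 ± 0.38 (adjusted p = 0.35). The 20 insulin signalling genes had a median of −0.04, with Irs4 at −0.39 ± 0.13 (adjusted p = 0.171), and the 13 glucose metabolism genes had a median of −0.05, with the pyruvate carboxylase gene Pc at −0.45 ± 0.16 (adjusted p = 0.214). The 23 cytochrome P450 and xenobiotic receptor genes had a median of −0.06, with Cyp2c22 at −0.58 ± 0.17 (adjusted p = 0.137), and the 27 amino acid and urea cycle genes one of −0.09, with Bckdhb, of branched-chain amino acid breakdown, at −0.28 ± 0.13 (adjusted p = 0.396).

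**Figure D5:**
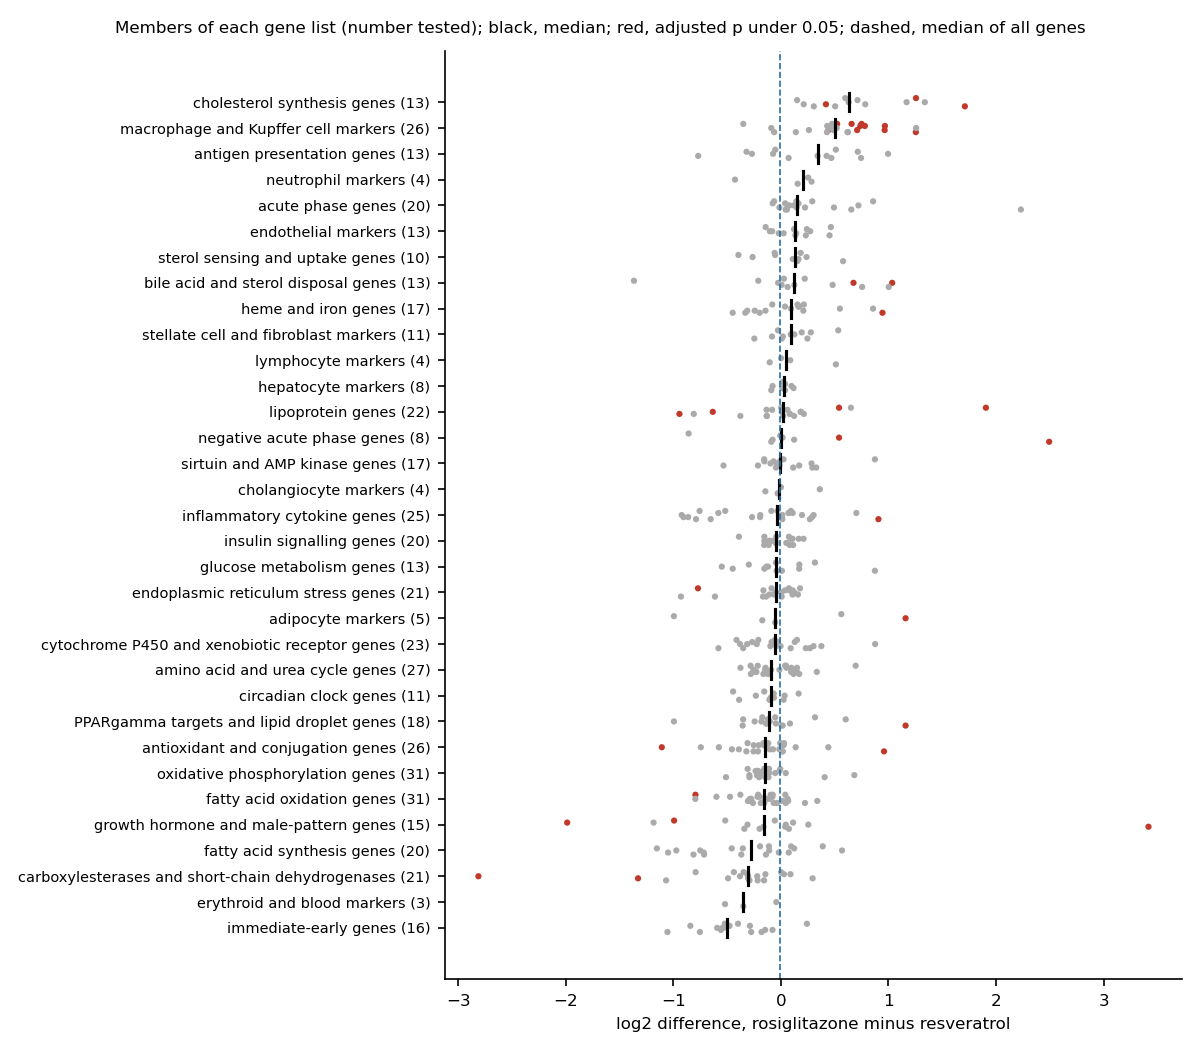
Log2 difference (rosiglitazone minus resveratrol) of every tested member of 33 gene lists, ordered by the list's median (black bar), with the number tested after each name; the dashed line is the median over all 9481 genes, −0.00. Red points passed at an adjusted p under 0.05. The medians of the cholesterol synthesis genes (0.63) and of the macrophage markers (0.51) are the highest and that of the immediate-early genes (−0.50) the lowest.

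The calls differed in how much they rested on single livers. When each of the 10 arrays was left out in turn, 31 of the 84 genes (16 higher and 15 lower) passed every time, and the other 53 lost significance at least once, with adjusted p-values up to 0.152. Omission of resveratrol rat 2 or 3 lost the most calls (44 each), and omission of resveratrol rat 5 the fewest (25). For 7 of the 84 genes the lower group mean was below the highest array median (Igfbp2, Fabp4, Slc13a5, Cyp7b1, Nab2, Hsd11b2 and 1700001K19Rikl), where the log2 scale is compressed. Hsd11b2, which inactivates corticosterone, was one of these and read 2.14, 2.27, 2.31, 1.83 and 2.25 with rosiglitazone and 2.57, 3.05, 3.10, 2.97 and 3.01 with resveratrol (−0.78 ± 0.13, adjusted p = 0.00488). Nab2, Hsd11b2 and 1700001K19Rikl were named after their values were seen. Rpl7a, a ribosomal protein gene with many processed copies, differed by 0.52 ± 0.09 (adjusted p = 0.00664) and was likewise picked after seeing its values, so what its probe set reads is uncertain.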

How the data were processed

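Total RNA of 20 snap-frozen livers was hybridised to Affymetrix Rat Gene 2.1 ST arrays, 1 per rat. The authors deposited log2 values made by RMA, a method of background correction, quantile normalisation and summary over a probe set's probes. Its version and annotation build were not given in the sources used here. Quantile normalisation gives all arrays about the same distribution, so a change shared by most genes would be hidden, and low values are compressed. No detection call was used. Precision is limited by how many arrays there are.

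Symbols came from the platform annotation. Of 36685 probe sets 14824 had 1 symbol, 829 had several and were not used, and 21032 were unnamed here. The identifiers of 14670 probe sets were found in RefSeq (GRCr8), which changed 0 symbols. For 234 genes with several probe sets, that of highest mean level was taken. Genes above their array's percentile 50 in at least 5 of the 20 arrays were tested.

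Group means were fitted to all 20 arrays with limma 3.58.1 in R 4.3.3 (lmFit and eBayes, 2-sided, no covariate; degrees of freedom, 16 residual and 5.40 prior), and genes were called at a Benjamini-Hochberg adjusted p under 0.05. On simulated data with 200 of 9481 genes changed between these groups (10 draws), the fit recovered 36.1% of genes changed by 0.5, 91.4% by 1 and 97.5% by 1.5 on the log2 scale, with 4.92% false among the calls. The simulated noise was normal and independent between genes. Livers that stand apart in many genes at once were not imitated, so these shares may not hold for the real arrays. Gene lists were described by counts and medians, with no test of a list. Genes named were the 15 highest and 15 lowest called genes whose groups did not overlap (unnamed loci, predicted genes, microRNAs and smell and taste receptors left out), every called list member and up to 4 members by smallest p of a list described. A fixed set of 18 PPARgamma, lipid and earlier named genes was added. The members and lists were chosen with earlier results of these data known. Alternatives were another or no filter, another scaling, the 10 arrays alone, array weights, a replicate block, a mean-variance trend, other probe set rules, stricter calls and the omission of each array. Tables and plots were made in Python 3.11.15 with pandas 2.3.3 and matplotlib 3.10.9.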

Additional observations from a re-analysis of the deposited data

Results flagged for a closer look

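In the genes named or called, 338 groups of 5 livers were examined for a single liver far from its 4 group mates (Dixon's test), and 21 had one, 10 with rosiglitazone and 11 with resveratrol. Chance gives about 1 in 20 groups. All values are log2 expression.

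Resveratrol rat 1 stood apart in 7 genes. It was highest for A2m (8.14, the others 2.62 to 3.28) and for Pnpla2 (7.05, the others 6.80 to 6.87). It was lowest for Srebf1 (6.13, the others 6.92 to 7.10), Acadm (9.33, the others 9.46 to 9.51), Bhlhe40 (7.26, the others 7.95 to 8.15), Hsd11b2 (2.57, the others 2.97 to 3.10) and Pde8b (3.10, the others 3.81 to 3.95). Without it the difference of A2m became 3.25 with an adjusted p of 0.00679 (limma), that of Srebf1 −0.89 with 0.145 and that of Pde8b −1.07 with 0.0143. Since the rat was left out for its values, these adjusted p-values are no tests of the genes.

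Resveratrol rat 5 was lowest for Cyp2c11 (8.07, the others 9.36 to 9.62), LOC100360095 (8.87, the others 9.61 to 9.84) and Rpl7a (7.96, the others 8.16 to 8.22), and highest for Evc (3.73, the others 3.52 to 3.57). Rosiglitazone rat 5 was lowest for Eif4ebp3 (4.90, the others 7.19 to 7.67), Ctsl (8.64, the others 9.21 to 9.38), Hagh (6.80, the others 7.13 to 7.18) and Cps1 (10.14, the others 10.63 to 10.78), and highest for Lbp (9.74, the others 8.34 to 8.74). Rosiglitazone rat 2 was lowest for Pdk4 (5.74, the others 8.09 to 8.87), Cidec (6.61, the others 7.16 to 7.35) and Flt4 (4.46, the others 5.02 to 5.18). Rosiglitazone rat 3 was lowest for Bhlhe40 (6.88, the others 7.50 to 7.70) and rosiglitazone rat 4 for Grb14 (6.74, the others 7.07 to 7.21). The causes were not tested.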

How the results depend on the processing

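The 84 calls moved to between 43 and 71 when 1 array was left out, with 22 to 45 higher and 18 to 34 lower. They came to 59 with the arrays centred on their medians (31 higher) or with the 10 arrays fitted alone, 74 without a filter, 111 with a mean-variance trend and 104 with array weights. At an adjusted p under 0.01 there were 27, of which 15 were higher and 12 lower. Over all 20681 probe sets passing the filter there were 107 calls, 74 of them higher, and 51 of the 107 had no name here. Rosiglitazone and resveratrol livers of the same replicate number had correlated deviations of −0.0737 to 0.253, with the own number highest in 1 of 5. These 5 values cannot settle whether the number stands for something the rats shared. The main fit did not use it, and a fit with the replicate block called 73 genes.

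Of the 45 genes named by rule that passed (those picked after their values were seen were not counted), 10 no longer did with the 10 arrays alone, 9 with centred arrays, 7 with the replicate block, 5 without a filter and 1 with repeated quantile normalisation. Signs turned for 6 named genes that had not passed. Plin2 was −0.00437 with array weights. Over the omissions Plin2 ran from −0.34 to 0.45, Cd36 from −0.22 to 0.0803, Pdk4 from −0.42 to 0.46, Per1 from −0.034 to 0.33, Angptl4 from −0.39 to 0.00099 and Npas2 from −0.39 to 0.0278. The causes were not tested. With 5 livers a group, most genes changed by 0.5 were missed in the simulated data (36.1% recovered), and smaller changes were not simulated.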
